A study of Mus musculus with 6 samples.

Results

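The 10 genes described here encode the subunits of the transcription factor AP-1 (Fos, Fosb, Fosl1, Fosl2, Jun, Junb and Jund) and 3 further immediate early proteins (Egr1, Atf3 and Ier2). They were taken by name from a table of 27179 mouse gene IDs. The rule did not use their values, but they were chosen with earlier results of these data known. The 3 rhMG53 libraries came from primary muscle satellite cells kept with recombinant human MG53, a TRIM family protein of striated muscle known for membrane repair, and the 3 BSA libraries from cells kept with bovine serum albumin, the vehicle. Treatment lasted 72 h in both groups. In both, the cells came from hindlimb muscle of wild-type (WT) C57BL/6 mice and grew in medium with serum and bFGF. The labels describe the cells as ageing but state no age. The sources used here do not say whether animals were pooled or which animal or culture gave each library. Replicates are described as biological, yet p-values measure only the spread between these libraries, which may be partly technical.

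AP-1 is a dimer of a JUN protein with a FOS, ATF or another JUN protein, joined by a leucine zipper, and it binds a short palindrome in promoters and enhancers. Immediate early genes are transcribed within minutes of a growth factor, calcium or stress signal without new protein synthesis, and many of their mRNAs are short-lived. In muscle stem cells, Fos and Jun transcripts are known to climb when the tissue is dissociated. Samples taken only at the end of 72 h show the level at that time and not any earlier response.

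The stretches upstream of the start sites are shown because such stretches of Fos and Jun are known to hold elements that respond to cAMP, calcium and AP-1 itself. RefSeq sequences on GRCm38.p6 were matched for 7 of the 10 genes, and not for Egr1, Fosl1 or Ier2. Each stretch below is the 250 bases before the start site in the RefSeq promoter table, 5′ to 3′ on the gene's strand, for Fos (chr12:85473640-85473889, plus strand), Jun (chr4:95052223-95052472, minus), Junb (chr8:84978749-84978998, minus) and Atf3 (chr1:191183334-191183583, minus). Capitals mark 3 motifs searched on both strands. These are the half-site of the cAMP response element (TGACG, or CGTCA on the other strand), the TATA box (TATAAA) and an AP-1 site variant (TGACATCA).
Fos: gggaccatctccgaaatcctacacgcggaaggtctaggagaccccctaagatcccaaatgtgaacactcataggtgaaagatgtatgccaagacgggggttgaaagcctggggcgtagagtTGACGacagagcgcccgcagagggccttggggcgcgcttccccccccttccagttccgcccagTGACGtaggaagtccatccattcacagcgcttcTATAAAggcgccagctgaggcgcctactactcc
Jun: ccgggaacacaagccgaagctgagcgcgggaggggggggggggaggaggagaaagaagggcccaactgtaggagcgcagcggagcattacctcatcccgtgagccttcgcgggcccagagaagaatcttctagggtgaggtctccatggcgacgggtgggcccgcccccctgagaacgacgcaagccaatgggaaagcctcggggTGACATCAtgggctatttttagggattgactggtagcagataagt
Junb: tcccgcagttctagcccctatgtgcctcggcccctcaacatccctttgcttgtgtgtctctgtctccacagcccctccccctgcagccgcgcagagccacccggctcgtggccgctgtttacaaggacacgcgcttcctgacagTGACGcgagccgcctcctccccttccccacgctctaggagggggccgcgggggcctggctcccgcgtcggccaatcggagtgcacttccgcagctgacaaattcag
Atf3: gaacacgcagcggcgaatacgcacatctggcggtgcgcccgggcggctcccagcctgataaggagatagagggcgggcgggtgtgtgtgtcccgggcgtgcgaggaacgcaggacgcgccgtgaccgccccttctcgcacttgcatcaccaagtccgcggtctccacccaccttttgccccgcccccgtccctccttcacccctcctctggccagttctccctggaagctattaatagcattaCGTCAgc

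The half-site was found in the stretches of Fos, Fosb, Junb and Atf3, 4 of the 7 matched genes, and in 17.8% of 32851 promoter stretches of the same length. Fos held it at -129 and -66 from the start site, with a TATA box at -33. A TATA box was present in 12.4% of all stretches. Atf3 held the half-site at -7, counted from the RefSeq start, but on GENCODE M21 the last 7 bases of that stretch are exon and the whole stretch lies inside a longer transcript. The EGR site (GCGGGGGCG or GCGTGGGCG) was in the stretches of Fosb and Fosl2 and in 3.06% of all stretches. Those stretches of Fosb and Fosl2 are not printed. Other annotated starts lie farther upstream of them, as for Atf3, whose stretch is printed with that limit. For Fosb, 73 of the 250 bases lie inside the RefSeq gene span, and both of its motifs fall in them, and for Fosl2 all 250 lie inside a GENCODE exon. Jun held the variant TGACATCA at -45, as did 2.93% of stretches. The half-site and the variant were added after the sequences had been read. Only the 250 bases before each listed start were searched, so an absent motif may still lie farther upstream. The whole cAMP response element (TGACGTCA, which contains the half-site), the TRE (TGACTCA, or TGAGTCA on the other strand) and the CArG box were found in the stretches of 0 of the 7 genes and in 1.55%, 4.46% and 1.47% of all stretches. The stretch listed for Jund lies before a RefSeq start at 70697739 on chr8, while GENCODE gives 70698949, and it held none of these motifs and is not printed.

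The cells expressed all 10 genes. On the scale of CPM (reads of a gene as a share of the scaled library, times 1e6) per kilobase of transcript, Egr1, a zinc finger transcription factor, stood highest, at 111.2 ± 14.3 with rhMG53 and 118.1 ± 3.99 with BSA (SD, n = 3 each). It ranked 474 among 13160 tested genes with a known transcript length. Junb followed at 86.8 over the 6 libraries, then Ier2 at 63.8, Jund at 52.8, Fos at 45.1, Jun at 38.5, Fosl2 at 12.2, Fosb at 5.70, Atf3 at 5.62 and Fosl1 at 1.62 CPM per kilobase. Neighbours in this order overlapped in their range over libraries for Egr1 and Junb, for the run of Ier2, Jund, Fos and Jun, and for Fosb and Atf3. The gaps between Junb and Ier2, between Jun and Fosl2, between Fosl2 and Fosb, and between Atf3 and Fosl1 were wider than the spread over libraries. Fosl1 rested on 49 to 86 reads a library, so its values carry the largest counting error of the 10.

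The libraries held 17374151 to 22738745 counts, with 13769 genes tested. The labelled cell type was checked against markers. The satellite cell factor Pax7 averaged 8.44 CPM with rhMG53 and 10.02 CPM with BSA, while embryonic myosin heavy chain, Myh3, averaged 20512 CPM with rhMG53 and 22374 CPM with BSA, so transcripts of differentiated muscle were abundant. The 10 satellite cell markers, none at 0, summed to 2157 to 2315 CPM with rhMG53 and 2339 to 2418 CPM with BSA. These sums did not overlap, yet of the 8 tested satellite cell markers 5 were higher and 3 lower with rhMG53. The 12 markers of differentiating muscle summed to 55473 to 61393 CPM with rhMG53 and 58073 to 61862 CPM with BSA. Of 12 macrophage and other leukocyte markers, 10 averaged under 1 CPM (C1qb was at 0), and the list summed to 7.65 to 11.9 CPM with rhMG53 and 7.28 to 8.48 CPM with BSA. The 10 fibroblast and fibro-adipogenic markers, none at 0, summed to 86.8 to 99.7 CPM with rhMG53 and 78.2 to 91.3 CPM with BSA. Of 10 endothelial and mural markers, 8 averaged under 1 CPM (Kcnj8 was at 0), and that list summed to 131.9 to 170.3 CPM with rhMG53 and 149.9 to 185.4 CPM with BSA. That sum therefore rested on few genes. The endothelial markers Pecam1 and Cdh5 averaged 0.0873 and 0.345 CPM over the 6 libraries. Of the tested markers, 3 of differentiating muscle were higher with rhMG53 and 9 lower, and 4 of leukocytes were higher and 0 lower. For fibroblast and fibro-adipogenic markers these numbers were 6 and 1, and for endothelial and mural markers 0 and 3. The part of cell make-up in the values below was not tested, and in bulk RNA fewer cells of a type and less RNA per cell cannot be told apart.

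None of the 10 immediate early genes passed the threshold between rhMG53 and BSA (adjusted p under 0.05 in edgeR's quasi-likelihood test over all 13769 genes). The 10 adjusted p-values were 0.935 or higher, against a background of 0.0218% of genes called. The log2 fold change, rhMG53 over BSA, was positive for 5 and negative for 5, with a median of 0.01, and 50.5% of all tested genes were positive, with a median of 0.00142. At an unadjusted p under 0.05 there were 2 members, Jund and Fos, in opposite directions, against 5.20% of all genes (2.98% higher and 2.22% lower). DESeq2 and limma voom also called 0 of the 10, with 2 each at an unadjusted p under 0.05. Groups did not overlap for 1 member, Fos (lower), against 10.8% of all genes (5.95% higher and 4.83% lower).

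**Figure D1:**
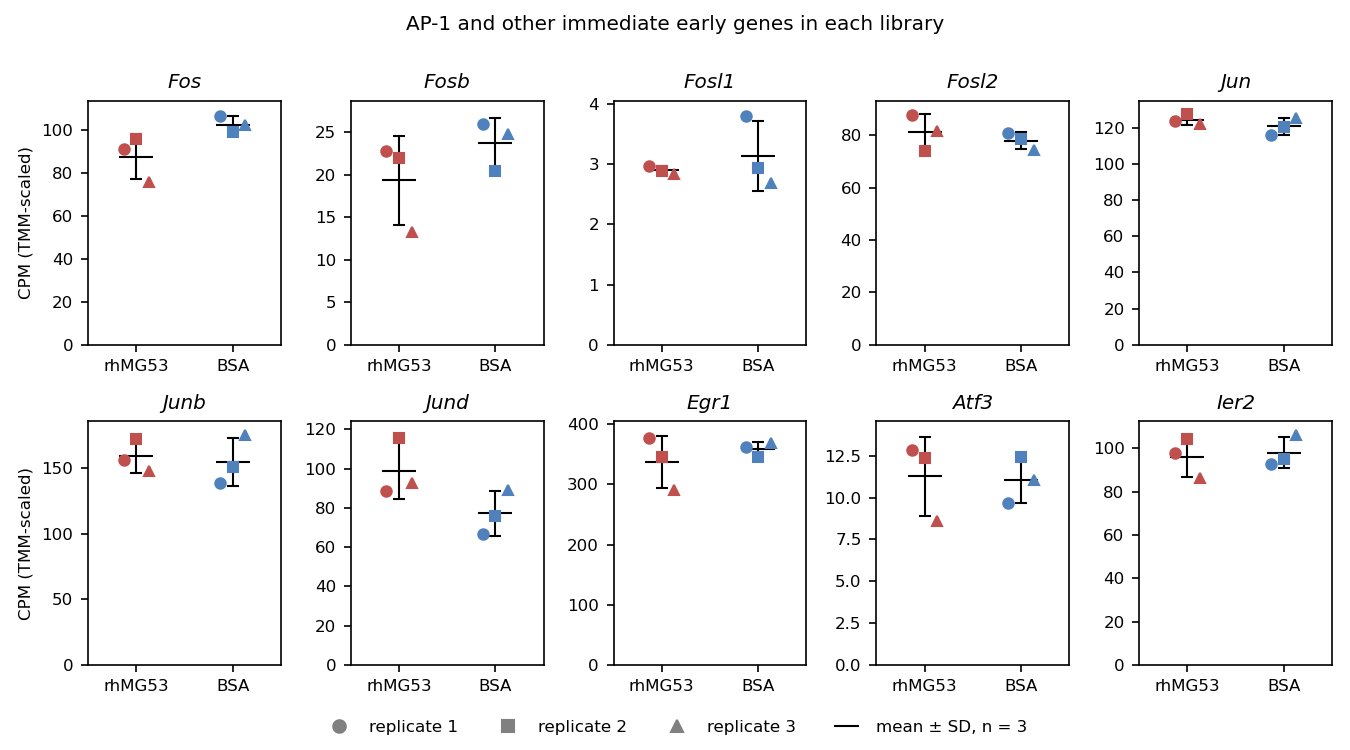
CPM (counts scaled by library size and TMM factor) of each gene in each library, rhMG53 left and BSA right; symbols mark replicate numbers and bars the mean ± SD of 3 libraries. Fos is the only gene whose groups do not overlap, and rhMG53 replicate 3 is the lowest library for Fos, Fosb, Egr1, Atf3 and Ier2.

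Among the FOS family, Fos (gene ID 14281), the founding member and the classic marker of recent stimulation, had 91.1, 95.8 and 75.6 CPM in rhMG53 replicates 1 to 3, against 106.4, 98.7 and 102.2 CPM in BSA replicates 1 to 3. The gene lies on chr12 from 85473890 to 85477274. Every rhMG53 library was below every BSA library, although replicate 2 of each group differed by only a few CPM. The log2 fold change was -0.23 (SE 0.084, 95% interval -0.41 to -0.04), with an unadjusted p of 0.0207 and an adjusted p of 0.940 in edgeR. Without rhMG53 replicate 3 the log2 fold change was -0.14 (SE 0.072, unadjusted p = 0.0906 in edgeR), and without BSA replicate 1 it was -0.20 (SE 0.097, unadjusted p = 0.0689).

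Fosb (14282), whose gene also gives the truncated product ΔFosB that gene counts do not separate, was at 22.8, 21.9 and 13.3 CPM with rhMG53 and 26.0, 20.5 and 24.8 CPM with BSA. The groups overlapped, and rhMG53 replicate 3 lay far below the other 5 libraries. Its log2 fold change of -0.29 (SE 0.169, interval -0.67 to 0.08) was -0.09 without that library.

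Fosl2 (14284), which encodes FRA2, was at 87.8, 74.2 and 81.6 CPM with rhMG53 and 80.96, 78.6 and 74.5 CPM with BSA, with overlapping groups and a log2 fold change of 0.06 (interval -0.10 to 0.22). Fosl1 (14283), which encodes FRA1, was at 2.98, 2.89 and 2.84 CPM with rhMG53 and 3.798, 2.94 and 2.69 CPM with BSA. BSA replicate 1 stood above the rest, and without it the log2 fold change of -0.13 (interval -0.52 to 0.27) became 0.05. On GENCODE's annotation Fosl1 overlaps Ccdc85b, on the other strand, by 2767 bases, and with no stated strand setting for the counting their reads cannot be told apart with certainty.

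Among the JUN family, Jund (16478), often the most steadily expressed of its paralogs, had the largest difference of the 10 genes. Its level was 88.7, 115.7 and 92.4 CPM in rhMG53 replicates 1 to 3, against 66.6, 75.8 and 89.0 CPM in BSA replicates 1 to 3. The groups met only where BSA replicate 3 edged past rhMG53 replicate 1. The log2 fold change was 0.36 (SE 0.117, interval 0.10 to 0.62), a ratio of 1.28, with an unadjusted p of 0.0106 and an adjusted p of 0.935 in edgeR. It ran between 0.23 without rhMG53 replicate 2 and 0.48 without BSA replicate 3. The gene spans chr8 from 70697739 (RefSeq) or 70698949 (GENCODE) to 70700616 and is overlapped over 919 bases by Gm11175, an antisense transcript with no row of its own in the count table.

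Jun (16476), the partner that FOS proteins bind in the classic AP-1 dimer, was the steadiest of the 10, at 123.9, 128.0 and 122.2 CPM with rhMG53 and 116.4, 120.8 and 125.5 CPM with BSA. The groups overlapped. Its log2 fold change was 0.04 (SE 0.058, interval -0.08 to 0.17), so the data allow a ratio between 0.945 and 1.13. Junos, an antisense transcript with no row in the table, overlaps it by 689 bases. Junb (16477), which can oppose JUN at some targets, was at 156.5, 172.4 and 148.3 CPM with rhMG53 and 138.7, 150.9 and 175.1 CPM with BSA. Its groups overlapped fully, with a log2 fold change of 0.04 (interval -0.16 to 0.23) whose sign turned in 3 alternatives. Junb overlaps Prdx2, on the other strand, by 351 bases. Atf3 shares 108 bases with the small RNA gene Gm24748.

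**Figure D2:**
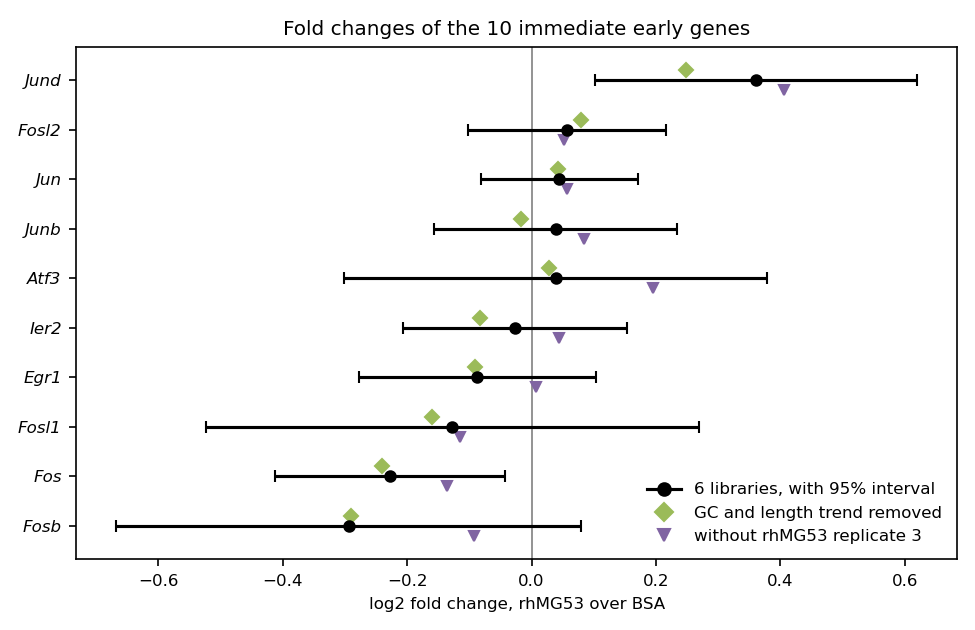
Log2 fold change, rhMG53 over BSA, of each gene with its 95% interval (black), and the values with the trend on GC content and length removed (green) and without rhMG53 replicate 3 (purple). The intervals of Jund and Fos lie off 0 before adjustment over all genes, and the Fos and Fosb values lie nearer 0 without rhMG53 replicate 3.

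Set against its paralogs per length, Jund took 29.8%, 33.9% and 31.5% of JUN family transcripts in rhMG53 replicates 1 to 3, against 26.1%, 27.3% and 28.2% in BSA replicates 1 to 3, without overlap. Junb took 47.2 ± 1.07% with rhMG53 and 50.4 ± 0.591% with BSA (SD, n = 3 each), also without overlap. Jun took 21.1 ± 1.26% with rhMG53 and 22.4 ± 1.56% with BSA, with overlap (SD, n = 3 each). In the FOS family, Fos took 68.4 ± 2.10% with rhMG53 and 71.0 ± 0.560% with BSA, Fosl2 20.7 ± 2.84% and 17.4 ± 0.751%, Fosb 8.34 ± 1.52% and 9.15 ± 0.805%, and Fosl1 2.58 ± 0.236% and 2.45 ± 0.359%. Shares within a family sum to a fixed whole and show unequal change only, so those of Jund and Junb are not independent. The shares were described without a test. The CPM groups of Jund itself overlapped, as did those of Junb, and CPM groups did not overlap for 10.8% of all genes.

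Egr1 (13653), which binds GC-rich sites and is induced with Fos, was at 376.1, 346.0 and 290.6 CPM with rhMG53 and 362.2, 345.0 and 368.4 CPM with BSA. The groups overlapped, with rhMG53 libraries both highest and lowest. Its log2 fold change was -0.09 (SE 0.086, interval -0.28 to 0.10) and turned to 0.01 without rhMG53 replicate 3. Atf3 (11910), a stress-induced bZIP factor that can dimerise with JUN proteins, was at 12.9, 12.4 and 8.57 CPM with rhMG53 and 9.67, 12.4 and 11.04 CPM with BSA. It too had the highest and the lowest library in the rhMG53 group, with a log2 fold change of 0.04 (interval -0.30 to 0.38). Ier2 (15936), a small nuclear protein of the growth factor response, was at 97.9, 104.5 and 86.1 CPM with rhMG53 and 92.6, 95.2 and 106.2 CPM with BSA, with overlapping groups and a log2 fold change of -0.03 (interval -0.21 to 0.15).

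The 10 genes summed to 1061, 1074 and 921.5 CPM in rhMG53 replicates 1 to 3, against 1003, 1001 and 1079 CPM in BSA replicates 1 to 3. Replicate 3 of the rhMG53 group was the lowest of the 6 libraries for 5 of the 10 genes (Fos, Fosb, Egr1, Atf3 and Ier2), and for 14.9% of all tested genes. The JUN genes and both FOSL genes were not lowest there. Of 39 other immediate early genes, 9 were lowest in that library and 14 in BSA replicate 2. It also held the fewest counts, 17374151, and the part of depth in this pattern was not tested.

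**Figure D3:**
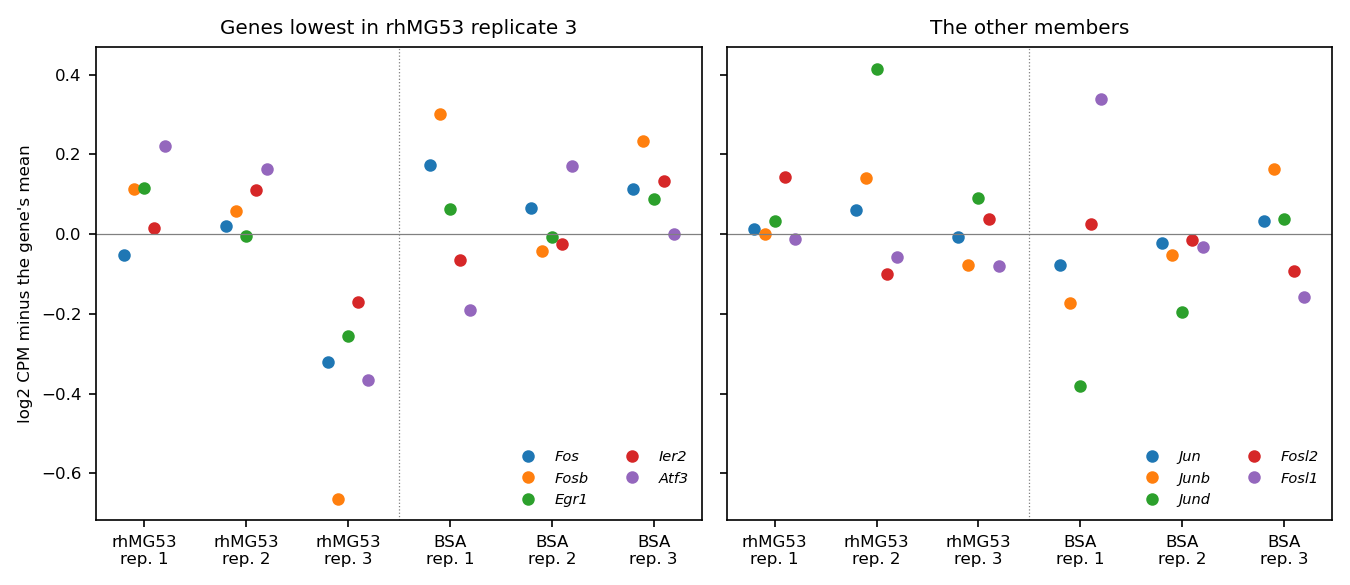
Log2 CPM of each gene minus its own mean, by library, with rhMG53 left of the dotted line and BSA right. In rhMG53 replicate 3 Fosb lies at -0.66, Atf3 at -0.36, Fos at -0.32, Egr1 at -0.26 and Ier2 at -0.17, while Jun lies at -0.01 and Jund at 0.09.

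Fosb varied most of the 9 genes averaging 5 CPM or more. Among 10196 other genes above that floor, the profiles over the 6 libraries most like that of Fosb, by root mean square difference of centred log2 CPM, were those of Slc38a6 (0.123), Ddx55 (0.124), Miip (0.126), Prr33 (0.132) and Tia1 (0.138). Of the immediate early genes, Fos ranked 28 (0.177) and Egr1 86 (0.204) in that likeness, Ier2 479 and Atf3 837, while Jund ranked 9906 (0.453).

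Jund, Junb and Ier2 had the most GC-rich transcripts of the 10, at 67.1%, 62.6% and 60.9% GC, against a median of 50.4% over tested genes, of which 19 were richer than Jund. Libraries differed in how CPM depended on GC content and length. At the GC content and length of Jund the fitted trend was -0.01, 0.17 and 0.01 log2 units in rhMG53 replicates 1 to 3, against -0.16, -0.11 and 0.11 in BSA replicates 1 to 3. With the trend removed, an alternative added after the data were seen, Jund stood at 89.4, 102.7 and 91.8 CPM with rhMG53 and at 74.6, 81.9 and 82.7 CPM with BSA. In that setting groups did not overlap for 4 of the 10 members, Jund, Jun and Fosl2 (higher) and Fos (lower). The share over all genes was 12.5% (6.71% higher and 5.84% lower). An unadjusted p under 0.05 was reached by 2 of the 10, Jund (0.00178 in edgeR) and Fos (0.00524 in edgeR), against 6.85% of genes. The log2 fold change of Jund was then 0.25 (SE 0.064, adjusted p = 0.405 in edgeR), against 0.36 without the correction. Jun and Fosl2, whose groups overlap without it, had log2 fold changes of 0.04 and 0.08 (adjusted p 0.911 and 0.811 in edgeR).

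**Figure D4:**
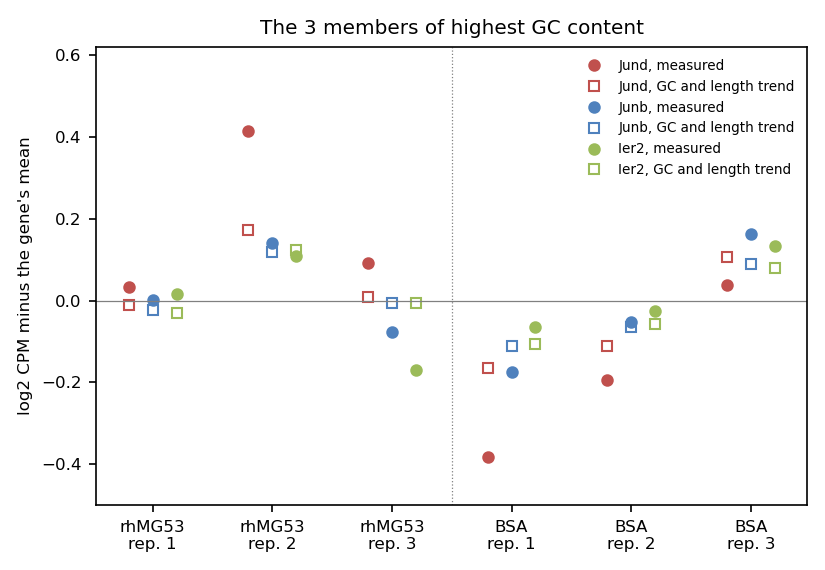
Log2 CPM minus the gene's mean (filled circles) and the fitted trend on GC content and length (open squares) by library for Jund, Junb and Ier2, rhMG53 left of the dotted line. The trend is highest in rhMG53 replicate 2 and BSA replicate 3 for each gene, where Junb is also highest, while Jund exceeds its trend of 0.17 in rhMG53 replicate 2 by lying at 0.42.

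Related gene lists were counted in the same fit. Of 41 other immediate early genes 39 were tested (Egr4 and Npas4 were too low), 22 higher and 17 lower with rhMG53, with a median log2 fold change of 0.03. None passed in edgeR, and 4 higher and 4 lower had an unadjusted p under 0.05, against 2.98% and 2.22% of all genes. The growth regulator Myc was at 25.4 ± 1.055 CPM with rhMG53 and 21.3 ± 0.462 CPM with BSA (log2 fold change 0.25), the small MAF factor Maff at 18.5 ± 0.287 and 15.7 ± 0.221 CPM (0.23), and Arc, best known as a synaptic immediate early gene, at 39.2 ± 1.51 and 45.3 ± 2.09 CPM (-0.21; SD, n = 3 each). The most abundant of the list were Rhob, a small GTPase gene, at 324.9 CPM with rhMG53 and 315.4 CPM with BSA, and the matricellular gene Ccn1, at 193.0 and 208.0 CPM.

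Of 25 other bZIP factors that pair with FOS or JUN proteins or bind related sites, 22 were tested (Batf, Batf2 and Batf3 were too low). Of these, 13 were higher and 9 lower (median 0.02). None passed in edgeR, and 1 higher and 1 lower had an unadjusted p under 0.05, against 2.98% and 2.22% of all genes. Cebpd had a log2 fold change of 0.58 (SE 0.155), at 9.23, 12.7 and 9.56 CPM with rhMG53 and 6.58, 6.27 and 8.24 CPM with BSA. Values were -0.19 for Maf and 0.40 for Cebpb, and the most abundant were Nfe2l1, at 835.6 CPM with rhMG53 and 821.8 CPM with BSA, and Atf6, at 150.5 and 160.7 CPM.

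Upstream kinases and factors had 15 members higher and 19 lower of 34 (median -0.02), with log2 fold changes from -0.59 to 0.25. In edgeR 0 passed the threshold, and 4 had an unadjusted p under 0.05 (2 higher and 2 lower), against 5.20% of all genes. Among them Fgfr4, an FGF receptor of muscle, had a log2 fold change of -0.47 (SE 0.157), the MSK kinase gene Rps6ka4 one of 0.25 and Map2k1, which encodes the kinase MEK1 upstream of ERK, one of 0.14. Mapkapk2, a kinase gene of the p38 pathway, was at 185.7 CPM with rhMG53 and 174.0 CPM with BSA. Of the 15 phosphatases and other feedback inhibitors of MAP kinase signalling, 8 were higher and 7 lower (median 0.00), with 0 past edgeR's threshold and 0 whose unadjusted p was under 0.05. Dusp2 (-0.17), Dusp10 (0.12) and Dusp5 (0.25) had the lowest p, and Spry2 stood at 62.6 CPM with rhMG53 and 64.0 CPM with BSA, and Spry1 at 62.3 and 61.9 CPM.

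Textbook AP-1 target genes were higher in 21 of 24 cases, with a median log2 fold change of 0.12, against 50.5% and 0.00142 over all tested genes. The list was chosen with earlier results of these data known and was described without a set test. It holds 1 of the 3 genes called over all tested genes. A single member rose past the threshold, the heme oxygenase gene Hmox1, at 136.8 ± 6.17 CPM with rhMG53 and 97.3 ± 3.86 CPM with BSA (log2 fold change 0.49, SE 0.061, adjusted p = 0.0313 in edgeR), and leaving out any 1 of the 6 ended its call (adjusted p 0.0685 to 0.571). Unadjusted p was under 0.05 for 7 members, each higher with rhMG53, against 2.98% of all genes in that direction. BSA replicate 2 was the lowest library for 13 of the 24 genes, against 14.9% of all genes, and rhMG53 replicates 1 and 2 the highest for 8 and 11, against 15.7% and 22.7%. Without BSA replicate 2, 18 of 24 were higher and 4 had an unadjusted p under 0.05, and without rhMG53 replicate 1 these numbers were 19 and 4. Of the 7 tested fibroblast and fibro-adipogenic markers 6 were also higher with rhMG53, and their part in the AP-1 target values was not tested. Besides Hmox1, the stromelysin gene Mmp3 had a log2 fold change of 0.37 (SE 0.101) and did not pass. The fibronectin gene Fn1 was at 2631 ± 603.4 CPM with rhMG53 and 2533 ± 423.6 CPM with BSA, and Spp1, the osteopontin gene, at 1457 and 1550 CPM. Several of these genes are also known targets of NRF2, NF-kB or TGF-beta, Hmox1 among them, so the list is not one of AP-1 alone.

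**Figure D5:**
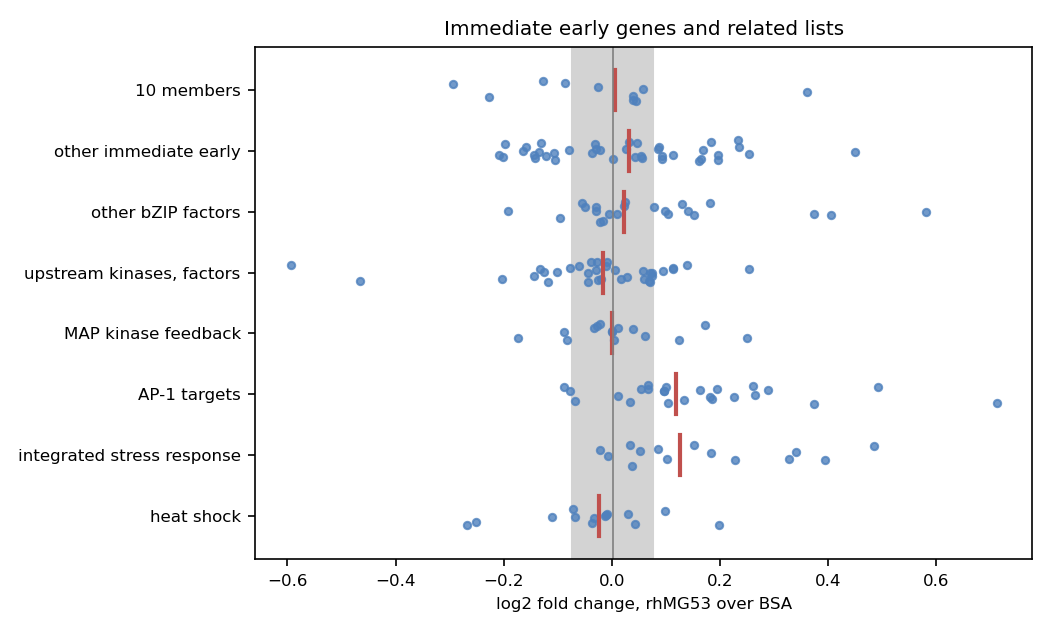
Log2 fold change, rhMG53 over BSA, of each tested gene by list (points, spread vertically at random), with the list median in red. The gray band spans the quartiles of all tested genes, -0.07 to 0.08. The medians of the AP-1 target and integrated stress response lists, 0.12 and 0.13, lie right of the band, and that of the 10 members, 0.01, lies within it.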

How the data were processed

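RNA was measured in 6 libraries made from poly(A)-selected RNA with a directional kit, per the labels' protocols. Values are raw counts of reads for each gene, as the authors deposited them. The submitters' processing notes name STAR, featureCounts and edgeR, all without a version, and mm10. For the annotation, the strand setting and reads with several matches, the answer is not given in the sources used here. No column of the table was left unused.

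Gene IDs were matched to symbols by a RefSeq table built on GRCm38.p6, a patch release of the assembly behind mm10 (25275 IDs), and a GENCODE table (18 more). The 1886 unnamed IDs, 0.509% to 1.26% of a library's counts, stayed in the tests. Transcript lengths and GC content are those of the longest GENCODE M21 transcript matched to a RefSeq transcript of the gene, so reads of other isoforms are scaled by the same length.

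Genes were kept with filterByExpr (minimum count 10, total 15), scaled with TMM factors and compared by the quasi-likelihood F test of edgeR 4.0.16 in R 4.3.3, 2-sided, with treatment as the only term and Benjamini-Hochberg adjustment over 13769 genes. The biological coefficient of variation was 7.89%. SE is the log2 fold change divided by the square root of F. CPM uses TMM-scaled library sizes. The fit was tested on simulated counts.

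The members, lists and alternatives were chosen with earlier results of these data known. Named are the 10 members, and from each list the genes past the threshold, the 3 with the smallest p among those averaging 5 CPM or more, and the 2 of highest mean CPM. The 5 genes most like the most variable member were named too. Some genes that this rule names are not reported here. Alternatives were other scaling (RLE, upper quartile, library size), other filters, DESeq2 1.42.0, limma voom (limma 3.58.1), robust moderation, the replicate number as a term, other thresholds on the adjusted p (0.01 and 0.1), and leaving out each library. Removing a loess trend (span 0.5) on GC content and length, known for 95.6% of tested genes and all 10 members, was added after the data were seen, as were counts of 2 lists with each library left out.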

Additional observations from a re-analysis of the deposited data

How the results depend on the processing

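None of the 10 members passed in any of the 16 alternative fits, where the lowest adjusted p of a member was 0.324, for Jund with no filter beyond a total count of 1. The number of genes called over the whole table was 3, and it was 6 with no filter, 5 with DESeq2, 5 with the trend on GC content and length removed and 0 to 4 when a library was left out, with 0 without BSA replicate 2. The cause of these changes was not tested. Members at an unadjusted p under 0.05 numbered 2, with 3 when no filter was used and 1 to 3 when a library was left out. Fos, Fosb, Jun and Jund kept their sign in every alternative run. With a library left out, the log2 fold changes ran from -0.30 to -0.14 for Fos, -0.43 to -0.092 for Fosb, 0.019 to 0.072 for Jun, 0.23 to 0.48 for Jund, -0.23 to 0.046 for Fosl1, -0.0039 to 0.12 for Fosl2, -0.034 to 0.14 for Junb, -0.17 to 0.0077 for Egr1, -0.069 to 0.19 for Atf3 and -0.090 to 0.044 for Ier2. With the trend on GC content and length removed, that of Junb was -0.017. None of the 21 list genes named for their p changed sign. Fosl1 averaged under 5 CPM and has no value under that filter.

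With the replicate block, 0 genes were called over the whole table and 2 members had an unadjusted p under 0.05. The numbers share no stated animal or day. Over 10198 genes the deviations of same-numbered libraries from their group means correlated at 0.47, -0.26 and -0.30. Differently numbered libraries correlated at -0.50 to 0.59. The numbers gave no sign of pairing, but with 3 libraries a group these correlations cannot settle it. The 95% intervals of the members reach a ratio of 0.630 for Fosb at the low end and 1.54 for Jund at the high end.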

Other observations

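Stress response lists that often move with immediate early genes were counted in the same fit. They too were chosen with earlier results of these data known and were described without a set test. Of 14 integrated stress response genes, which share upstream signals with Atf3, 12 were higher and 2 lower with rhMG53, with a median log2 fold change of 0.13. None passed in edgeR, and 4 had an unadjusted p under 0.05, all higher, against 2.98% of all genes in that direction. Replicate 1 of the rhMG53 group was the highest library for 7 of the 14, against 15.7% of all genes, and BSA replicate 2 the lowest for 5, against 14.9%. Without rhMG53 replicate 1, 11 of 14 were higher (median 0.08) and 1 had an unadjusted p under 0.05. Without BSA replicate 2, 12 were higher (median 0.07) and 1 had such a p. The median was 0.21 without BSA replicate 3. The amino acid transporter subunit gene Slc3a2 had 111.2, 110.6 and 102.9 CPM in rhMG53 replicates 1 to 3, against 94.6, 91.9 and 99.5 CPM in BSA replicates 1 to 3 (log2 fold change 0.18, SE 0.061). Sesn2, a stress-induced inhibitor of mTORC1, was at 22.0, 19.2 and 19.6 CPM with rhMG53 and 17.8, 16.4 and 17.8 CPM with BSA (0.23, SE 0.086). Groups did not overlap for either gene. These were the only 2 of the 14 without overlap, both higher, against 5.95% of all genes in that direction. Gdf15, a stress-induced secreted factor, had a log2 fold change of 0.33 (SE 0.143) with overlapping groups. Atf4, the transcription factor at the head of this response, was at 109.9 ± 4.66 CPM with rhMG53 and 111.6 ± 6.87 CPM with BSA (SD, n = 3 each).

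Heat shock genes known to climb with Fos and Jun during muscle dissociation were higher in 4 and lower in 10 of 14 cases. Their median log2 fold change was -0.02. In edgeR 0 were called, and 2, both lower, had an unadjusted p under 0.05, against 2.22% of all genes in that direction. Those 2 were Hspa1a (-0.27, SE 0.098) and Hspa1b (-0.25, SE 0.103), near-identical inducible HSP70 genes whose reads the counting could split between them. Hspa1a was at 18.1, 19.7 and 22.6 CPM with rhMG53 and 23.8, 22.6 and 26.3 CPM with BSA. Its level in rhMG53 replicate 3, the library lowest for Fos, was the highest of its group. The part of dissociation in these values was not tested. Hspb1, a small heat shock protein gene of muscle, had a log2 fold change of 0.20 (SE 0.095). The most abundant were Hsp90ab1, at 2612 CPM with rhMG53 and 2632 CPM with BSA, and Hspa8, at 2208 and 2320 CPM.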
